A study of Mus musculus with 3 samples.

Results

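These data describe colonic epithelial barcodes that carried RNA of the crypt genes Clca3b, Tm4sf20, Aqp4, Cftr, Dmbt1 and Edn1, in 3 single-cell RNA libraries from mice with dextran sulfate sodium (DSS) colitis. Members were chosen from their own counts, over the pooled libraries. A barcode had to hold at least 500 UMIs (unique molecular identifiers, counted as RNA molecules) and 200 genes, with at most 10% mitochondrial counts. It then needed at least 1 UMI of Epcam, Krt8 and Krt19 together and at least 2 UMIs of the 6 crypt genes together. Barcodes with 5 or more UMIs of 7 surface colonocyte genes, 1% or more of UMIs from 6 goblet mucus genes, or more than 1 UMI of Mki67, Top2a and Birc5 were left out. The rule gave 2678 members among 19109 kept barcodes and 8888 epithelial barcodes, of which 879 came from DATK32, 679 from MECA-367 and 1120 from rat IgG.

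In all 3 groups, C57/BL6J mice had 1.5% DSS in their water over 7 days, followed by 3 days on plain water. They received DATK32, MECA-367 or the control rat IgG by intraperitoneal injection, 250 µg 3 times a week. DATK32 and MECA-367 are rat antibody clones directed at the adhesion step by which lymphocytes enter the gut wall. Each library was made from lamina propria mononuclear cells of the large intestine sorted as viable and CD45 positive, and there is 1 library per group; the number of mice behind each is not given in the sources used here. CD45 is a leukocyte protein that epithelial cells lack, so the members passed a gate that should remove them. With 1 library per group there is no replicate error, no test was made and no p-value is given. Intervals are exact 95% intervals and cover counting error only, so a difference between groups is a difference between these libraries.

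The crypts of the colon hold stem cells at their base, dividing cells above them, and cells that leave the cycle as they move towards the surface. Crypt cells secrete chloride and water: Slc12a2 loads chloride through the basal membrane, the channel Cftr releases it into the lumen, potassium channels of the Kcnq1 and Kcne3 kind sustain the driving force, and the water channel Aqp4 lies in the basolateral membrane. In colitis the epithelium also makes antimicrobial proteins such as Reg3b and Reg3g, and presents antigen under interferon.

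Dmbt1, a secreted mucosal scavenger protein, carried the rule more than Aqp4 or Cftr did. It gave 59.3% of the members' crypt gene UMIs in DATK32, 65.2% in MECA-367 and 59.5% in rat IgG. Edn1, the precursor of the peptide endothelin, gave 24.0%, 17.7% and 24.6% in the same order. The other 4 genes gave 16.7% in DATK32, 17.1% in MECA-367 and 15.9% in rat IgG. Aqp4 had a UMI in 21.6% of DATK32 members, 17.4% of MECA-367 members and 27.4% of rat IgG members. Cftr had a UMI in 29.1%, 25.3% and 32.1% of the same members. Either gene was found in 42.0% of DATK32, 33.7% of MECA-367 and 47.5% of rat IgG members, so most members were chosen without a UMI of the 2 genes in the name. Members with no UMI of Clca3b, Tm4sf20, Aqp4 and Cftr made up 27.0% in DATK32, 40.8% in MECA-367 and 23.8% in rat IgG.

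Depth differed between the libraries, with median UMIs per member of 2294 in DATK32, 1937 in MECA-367 and 2841 in rat IgG. Members with at least 1000 UMIs were therefore thinned to 1000, which left 620 DATK32, 487 MECA-367 and 985 rat IgG members and dropped 259, 192 and 135. At that depth Dmbt1 was found in 77.7% of DATK32, 78.0% of MECA-367 and 82.4% of rat IgG members. Barcodes with T or NK cell genes and no epithelial UMI, which should lack Dmbt1, showed it in 3.81%, 2.73% and 4.64% at the same depth; unthinned, their median UMIs were 1220, 1416 and 1182.5. Edn1 was found in 57.1% of DATK32, 41.9% of MECA-367 and 59.4% of rat IgG members, against 1.90%, 0.994% and 1.47% of the T or NK barcodes. Aqp4 was found in 11.3% of DATK32, 5.75% of MECA-367 and 10.96% of rat IgG members, and in at most 0.244% of the T or NK barcodes. Members were chosen by UMIs of these genes, so their higher shares follow the rule and are a description. The T or NK barcodes were chosen without an epithelial UMI and may understate free RNA.

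**Figure D1:**
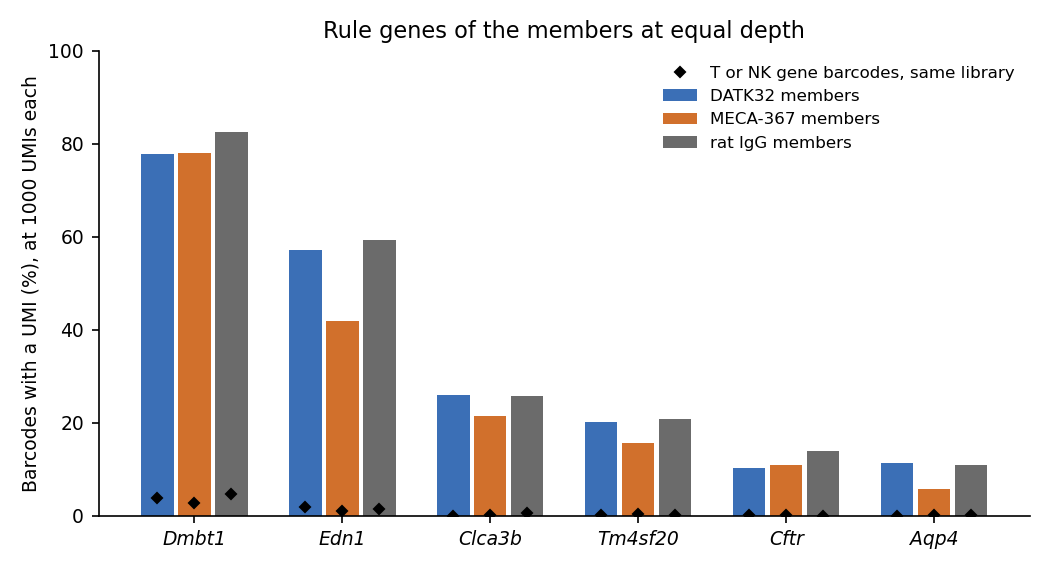
Share of members with a UMI of each crypt gene used in the rule (vertical axis, percent) after thinning each barcode to 1000 UMIs, in DATK32, MECA-367 and rat IgG; diamonds show T or NK gene barcodes of the same library. Dmbt1 was found in 77.7% to 82.4% of members and Aqp4 in 5.75% to 11.3%, and the diamonds lie below 5%. The rule chose members by these genes, so the gap to the diamonds follows from it.

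Members just inside the crypt gene limit were shallower than barcodes just outside it, with median UMIs of 922, 1184 and 1345 inside and 1288.5, 2154 and 1423.5 outside. At exactly 2 crypt UMIs, Slc12a2 was found in 23.5% of 115 DATK32, 26.2% of 107 MECA-367 and 35.1% of 94 rat IgG members. With 1 crypt UMI, outside the rule, it was found in 22.96% of 196, 21.8% of 179 and 17.9% of 218 barcodes. Ptprc, the gene of CD45, was found in 12.2%, 23.4% and 24.5% of the barcodes inside that limit, and in 25.5%, 38.0% and 30.3% of those outside it.

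The epithelial label was checked on genes outside the rule. Of 12 further epithelial genes, including Cdh1, Vil1, Cdx1, Cdx2 and Krt18, every one had counts in each library, and 98.1% of DATK32, 96.9% of MECA-367 and 98.0% of rat IgG members had at least 1 UMI of them. At 1000 UMIs, Krt18 was found in 52.6% of DATK32, 45.6% of MECA-367 and 48.1% of rat IgG members, against 1.48%, 1.86% and 1.47% of T or NK barcodes. Those barcodes were chosen without a UMI of Epcam, Krt8 and Krt19, so they may understate free epithelial RNA. Members also carried RNA of other cell types. Ptprc was found in 9.56% of DATK32, 17.97% of MECA-367 and 11.7% of rat IgG members. A list of 11 myeloid genes summed to 1869 CPM (summed counts scaled to the library's member total, as counts per 1e6) in DATK32, 15078 in MECA-367 and 1500 in rat IgG. In addition, 9 rat IgG members held 388 to 1627 UMIs of 11 pancreatic acinar genes each, whereas no other member of any library held more than 3.

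Each comparison is therefore given for all members and for marker-free members. Marker-free members had no UMI of Ptprc, Col1a1, Col1a2, Col3a1, Pecam1, Cdh5, Cd79a, Jchain, Cd3e and Lyz2, and under 10 UMIs of the acinar genes. They numbered 639 in DATK32, 398 in MECA-367 and 738 in rat IgG, which is 72.7%, 58.6% and 65.9% of members. Their myeloid sum was 653 CPM in DATK32, 418 in MECA-367 and 426 in rat IgG, with Lyz2 at 0 by choice and C1qb at 0 in each library. A UMI of that list was still found in 12.1% of DATK32, 36.2% of MECA-367 and 8.40% of rat IgG marker-free members, so myeloid RNA stayed most widespread in MECA-367. Immunoglobulin RNA remained: 74.0% of DATK32, 67.3% of MECA-367 and 77.8% of rat IgG marker-free members had a UMI of the B and plasma cell list. The choice favours shallow barcodes, with median UMIs of 1735, 1170.5 and 2660 in the marker-free members against 3336.5, 2962 and 3124 in members with a marker. Their summed UMIs were 1835605, 1180537 and 2100825. No member barcode was shared between libraries, while 7 to 11 kept barcodes were shared by each pair.

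Members made up 15.02% (14.1% to 16.0%) of kept barcodes in DATK32, 11.5% (10.7% to 12.4%) in MECA-367 and 15.2% (14.4% to 16.0%) in rat IgG. The MECA-367 share was lower than that of rat IgG by 0.40 on the log2 scale, with intervals apart but a fold under 1.5. Among epithelial barcodes, the share was 29.9% (28.3% to 31.6%) in DATK32, 30.1% (28.2% to 32.0%) in MECA-367 and 30.3% (28.9% to 31.8%) in rat IgG. These 3 intervals overlapped, so the lower MECA-367 share among kept barcodes went with a lower share of epithelial barcodes. Those numbered 2939 of 5852 kept barcodes in DATK32, 2257 of 5890 in MECA-367 and 3692 of 7367 in rat IgG. The effect of the sort on these shares and that of the tissue cannot be told apart. Thinned to 1000 UMIs before the rule was applied, the share of kept barcodes was 11.2% in MECA-367 against 24.6% in rat IgG.

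Members were also compared with other epithelium of the same libraries. The surface, goblet and cycling genes of the rule split members from these groups, so genes related to them follow that split. The contrasts are therefore a description and no separate check of crypt identity. Marker-free members were set against marker-free surface barcodes (128 in DATK32, 52 in MECA-367 and 150 in rat IgG), goblet barcodes (99, 42 and 92) and cycling barcodes (317, 229 and 320). A gene was counted where it passed a fold of 1.5 with intervals apart in each of the 3 libraries. Against surface barcodes, 87 of 4408 measured genes were higher (1.97%) and 143 lower (3.24%), or 5.22% called. Stem cell and Wnt target genes were on the higher side, with 5 of 15 higher and 0 lower. Cd44, a Wnt target and adhesion receptor, stood at 158 CPM in DATK32, 189 in MECA-367 and 156 in rat IgG marker-free members, against 34.0, 46.7 and 38.0 CPM in surface barcodes. Its log2 ratios were 2.17, 1.95 and 1.98. Smoc2, a crypt base gene, was among the 5, but it had at most 3 counts in the surface barcodes of any library and no ratio is given. Lrig1 and Sox9, a growth factor receptor inhibitor and a crypt transcription factor, were higher in each library too, by 0.98 to 1.57 and by 0.67 to 1.17.

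Of 17 secretion genes measured against surface barcodes, Slc12a2, Kcne3 and Fxyd3 were higher and Guca2a, the precursor of guanylin, was lower. The list's median ratio there was -0.13 in DATK32, -0.19 in MECA-367 and -0.19 in rat IgG. Against cycling barcodes, 0 of 18 secretion genes were called. Against goblet barcodes 2 of 17 were higher, Kcnq1 and Slc4a4, and 4 were lower, Fxyd3, Gucy2c, Guca2a and Guca2b. Slc12a2 stood at 686 CPM in DATK32, 730 in MECA-367 and 639 in rat IgG marker-free members, against 276, 312 and 209 CPM in surface barcodes. Kcne3 was higher by log2 0.89 in DATK32, 1.10 in MECA-367 and 0.65 in rat IgG. Of the 6 crypt genes of the rule, Clca3b was higher than in surface barcodes in each library and the other 5 were not called higher in all 3. Over all members, Aqp4 stood at 136, 98.3 and 166 CPM, against 221, 211 and 255 CPM in surface barcodes. Dmbt1 stood at 3202, 2844 and 3481 CPM in members and at 5467, 4672 and 5484 CPM in surface barcodes. In marker-free members, Edn1 alone of the 6 was called higher than in cycling barcodes in each library, while all 6 were against goblet barcodes. The name Aqp4 and Cftr crypt cells thus follows the rule, and RNA of both genes was also present in surface barcodes.

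Surface colonocyte genes outside the rule were lower, 16 of 20 in each library. Krt20, a keratin of the upper crypt and surface, was lower, with log2 ratios of -1.88 in DATK32, -2.72 in MECA-367 and -2.83 in rat IgG. Lypd8, a secreted protein that keeps flagellated bacteria off the epithelium, had ratios of -1.89, -1.87 and -1.56. Reg3b was lower than in surface barcodes as well, with ratios of -2.44, -1.79 and -1.90. MHC class II genes were higher, 4 of 6, and Cd74, the invariant chain, had ratios of 1.74, 1.16 and 1.25. The leukocyte marker Srgn moved with them, with ratios of 2.002, 2.007 and 2.056, and its part in the class II values was not tested.

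Against cycling barcodes, 48 of 5722 measured genes were higher (0.839%) and 241 lower (4.21%), 5.05% called in all. Cell cycle genes outside the rule were lower, 18 of 30, beside a rule that limited 3 cycling genes. Ccna2, a cyclin, had ratios of -2.80, -3.56 and -3.56. Of 19 stem cell and Wnt target genes measured there, 0 were called either way. Cldn4, a tight junction claudin of differentiated cells, was higher, with ratios of 1.49, 1.28 and 1.06. Against goblet barcodes, 416 of 4308 genes were higher (9.66%) and 454 lower (10.5%), 20.2% called in all. Goblet genes outside the rule were lower, 19 of 21, and Spdef, a goblet transcription factor, had ratios of -4.46, -3.92 and -3.89. Hes1, a Notch target that restrains secretory fate, was higher than in goblet barcodes, with ratios of 2.17, 1.33 and 1.63.

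**Figure D2:**
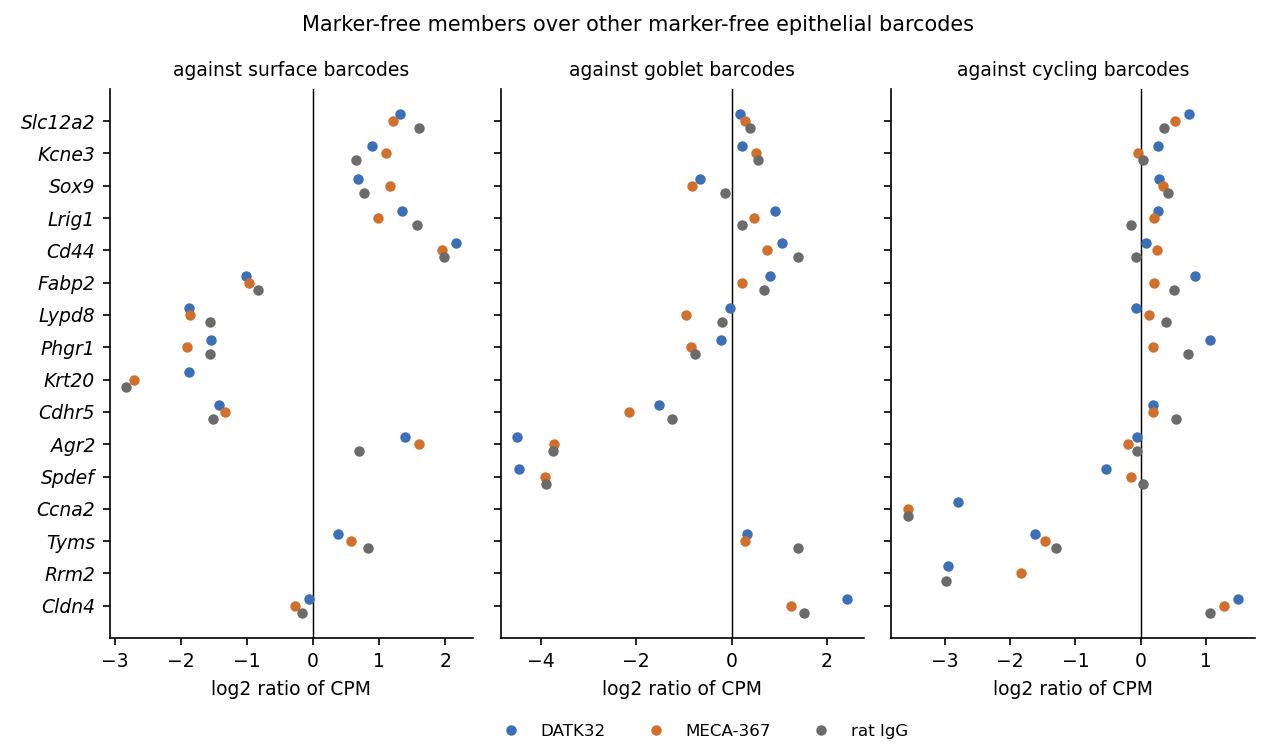
Log2 ratio of CPM (horizontal axes) of marker-free members over marker-free surface, goblet and cycling barcodes, for genes outside the rule (rows), with 1 point per library. Cd44 and Slc12a2 lie to the right of 0 against surface barcodes, Krt20 and Lypd8 to the left, and Ccna2 and Rrm2 to the left against cycling barcodes.

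With the 3 comparison groups joined, 25 of 6674 genes were higher in marker-free members (0.375%) and 182 lower (2.73%), 3.1% called in all. Timp3, an inhibitor of matrix metalloproteinases, led the named higher genes when ranked by the smallest ratio over the 3 libraries. It stood at 156 CPM in DATK32, 81.3 in MECA-367 and 119 in rat IgG, with ratios over the joined epithelium of 1.99, 1.16 and 1.43. Timp3 is also a gene of stromal cells; Col1a1, Col1a2 and Col3a1 are at 0 in these barcodes by choice, and the part of stromal RNA in its level was not tested. The protocadherin Pcdh17 had ratios of 1.46, 0.86 and 1.32, the alcohol dehydrogenase Adh1 0.93, 1.38 and 0.80, and the potassium channel Kcnq1 0.79, 0.75 and 0.88. With the groups taken apart, Kcnq1 was called higher in all 3 libraries against goblet barcodes and not against surface or cycling barcodes. The goblet resistin-like gene Retnlb was among the lowest, with ratios of -5.19, -4.36 and -4.82. It was called lower in all 3 libraries against goblet barcodes, which the rule kept out of the members, and not against surface or cycling barcodes.

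Differences between the libraries were counted over all genes with at least 50 counts in the members of the 3 libraries. The call needed a 1.5-fold difference and Poisson intervals that did not touch. For MECA-367 against rat IgG, 596 of 10232 genes were higher (5.82%) and 407 lower (3.98%) in all members, 9.8% called in all. In marker-free members, 177 of 8403 were higher (2.11%) and 257 lower (3.06%), 5.16% in all. Of the 596 higher genes, 108 were called higher again in marker-free members and 163 had the opposite sign there. Of the 407 lower genes, 184 were called lower again and 10 had the opposite sign. The higher calls thus went with the marker-carrying members more than the lower ones did.

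Many genes of neutrophils and other leukocytes were higher in MECA-367 among all members. Among genes found in at least 10% of MECA-367 members and leaving out haemoglobin genes, the 10 highest ratios over rat IgG were those of Lcn2, Ifitm6, S100a8, Retnlg, S100a9, Alox5ap, Hp, Slfn4, Hdc and Wfdc17. S100a8, a neutrophil calcium-binding protein, stood at 669 CPM in DATK32, 5768 in MECA-367 and 509 in rat IgG members. In marker-free members it stood at 249, 167 and 151 CPM, and the MECA-367 ratio over rat IgG was 0.15, against 3.501 in all members. A UMI of S100a8 was nevertheless found in 2.97% of DATK32, 17.6% of MECA-367 and 2.71% of rat IgG marker-free members. S100a9 had a ratio of 3.40 in all members and -0.17 in marker-free members, where it was found in 6.26%, 18.6% and 4.34%. The part of neutrophil RNA in other MECA-367 values was not tested. The all-leukocyte list summed to 654, 1785 and 579 CPM in members and to 126, 130 and 103 CPM in marker-free members. In barcodes of the same libraries without any epithelial UMI (2913, 3633 and 3675), S100a8 was higher in MECA-367 by 2.38.

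**Figure D3:**
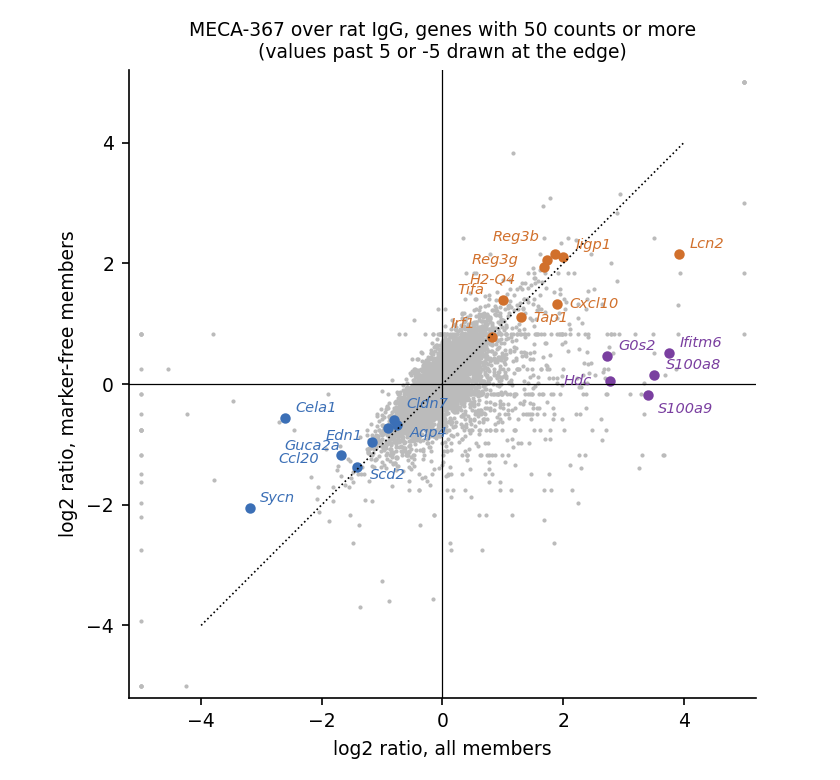
Log2 ratio of MECA-367 over rat IgG for each gene in all members (horizontal axis) and in marker-free members (vertical axis); the dotted line marks equal values. S100a8, S100a9, Ifitm6, Hdc and G0s2 (purple) lie between -0.17 and 0.51 on the vertical axis, whereas Reg3b and Reg3g (orange) stay above 2 there and Edn1 and Cldn7 (blue) stay below 0. Edn1 and Aqp4 are genes of the rule.

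Antimicrobial and mucosal defence genes were higher in MECA-367 in marker-free members, 9 of 26 measured, and 1 was lower; the median ratio of the list was 0.24, against -0.01 over all genes. In all members 17 of 30 were higher and 3 lower, with a median of 0.61. Reg3b, a secreted antimicrobial C-type lectin, stood at 1859 CPM (1797 to 1922) in DATK32, 6033 (5894 to 6175) in MECA-367 and 1351 (1302 to 1402) in rat IgG marker-free members. MECA-367 was high and its interval lay far from both others, with a log2 ratio over rat IgG of 2.16. DATK32 lay between the others, with a ratio over rat IgG of 0.46, under the fold used. Reg3g, its close relative, stood at 220 CPM (199 to 243), 616 (572 to 662) and 148 (132 to 165), a MECA-367 ratio of 2.05. Reads of the 2 Reg3 genes may be split between them, so their separate values are uncertain.

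Reg3b UMIs were spread unevenly over barcodes in each library. At 1000 UMIs each, the gene was at 0 UMIs in 70.4% of DATK32, 42.6% of MECA-367 and 79.8% of rat IgG marker-free members. Barcodes with 10 or more Reg3b UMIs made up 5.67%, 13.1% and 3.61%, or 23, 32 and 23 barcodes. The tenth of barcodes with the most Reg3b held 80.4%, 62.8% and 85.9% of its UMIs, and the highest barcodes held 56, 97 and 40. A UMI of Reg3b was found in 2.11%, 6.21% and 1.96% of T or NK barcodes at that depth, with the MECA-367 share again the highest. Its ratio of MECA-367 over rat IgG in the barcodes without epithelial UMIs was -0.33. Those barcodes were not cleared of acinar RNA. Among all kept barcodes, 33 in rat IgG and 2 in MECA-367 held 10 or more UMIs of the acinar genes. The 9 such rat IgG members held 531 of the 4652 Reg3b UMIs of that library's members. The part of acinar RNA in the -0.33 was not tested.

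**Figure D4:**
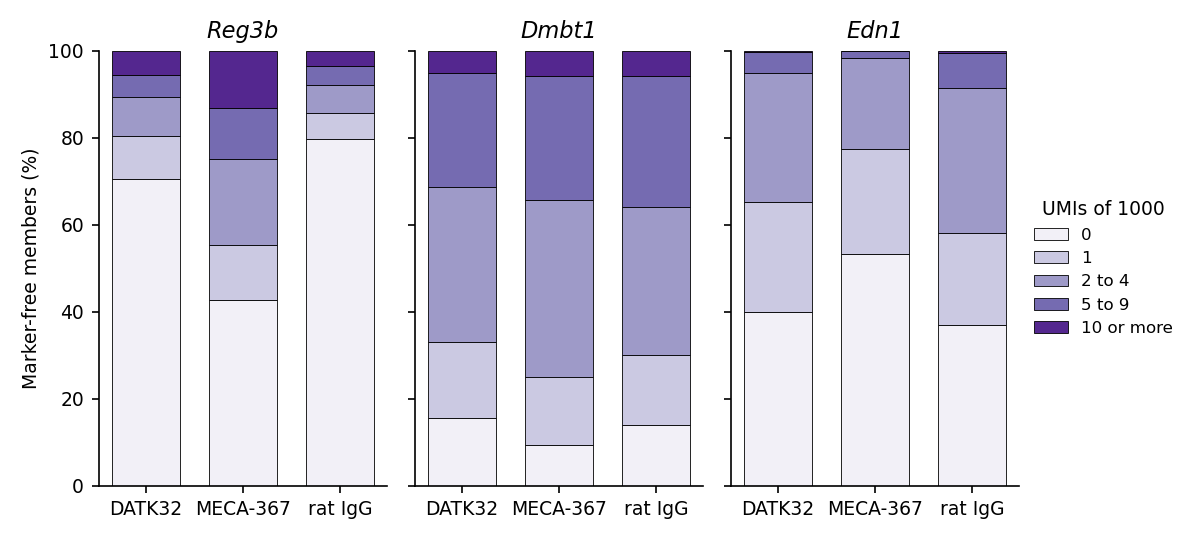
Share of marker-free members (vertical axis, percent) by the number of UMIs of Reg3b, Dmbt1 and Edn1 after thinning each barcode to 1000 UMIs, in DATK32, MECA-367 and rat IgG. The lightest band, 0 UMIs of Reg3b, covers 70.4%, 42.6% and 79.8%, and 0 UMIs of Edn1 covers 39.9%, 53.3% and 36.8%. Dmbt1 and Edn1 are genes of the rule.

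Other defence genes of epithelial cells moved with Reg3b. Tifa, an adaptor in the response to bacterial sugar, stood at 113 CPM (98.4 to 130) in DATK32, 185 (161 to 211) in MECA-367 and 70.5 (59.6 to 82.8) in rat IgG. Its ratios over rat IgG were 0.68 for DATK32 and 1.39 for MECA-367, both called. Duox2, an oxidase that makes hydrogen peroxide at the mucosal surface, stood at 91.0 CPM (77.7 to 106), 107 (88.9 to 127) and 58.5 (48.7 to 69.9), with ratios of 0.63 and 0.87. Its maturation factor Duoxa2 was higher in MECA-367 by 0.80, and its DATK32 ratio of 0.56 was not called. At 1000 UMIs, Duox2 was found in 9.36%, 15.2% and 4.39% of marker-free members and in at most 0.734% of T or NK barcodes. Wfdc18, Retnlb, Lcn2 and Slpi were called higher in MECA-367 as well, each below 60 CPM in each library. For Lcn2 and Slpi, the share of thinned marker-free members with a UMI was at or below that of T or NK barcodes. Their values are not told apart from free RNA, though both are in the count of higher defence genes above. Lypd8 was the lower defence gene, at 420 CPM (391 to 451) in DATK32, 450 (412 to 490) in MECA-367 and 729 (693 to 766) in rat IgG.

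Interferon response genes were higher in MECA-367, 6 of 19 measured in marker-free members with 2 lower, and 19 of 30 in all members with 1 lower. The list's median ratio was 0.47 in marker-free members and 0.63 in barcodes without epithelial UMIs, so it was not confined to members. Irf1, a transcription factor of the interferon-gamma response, stood at 408 CPM (379 to 438) in DATK32, 374 (340 to 410) in MECA-367 and 217 (198 to 238) in rat IgG. It was high in both antibody libraries, by 0.91 in DATK32 and 0.78 in MECA-367. In barcodes without epithelial UMIs the ratios were 0.33, not called, and 0.94. At 1000 UMIs Irf1 was found in 30.5%, 34.8% and 18.6% of marker-free members and in 15.2%, 21.5% and 16.6% of T or NK barcodes.

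Iigp1 and Irgm1, interferon-induced GTPases that act against intracellular microbes, were higher in MECA-367 by 2.10 and 1.33. Iigp1 stood at 57.2 CPM in DATK32, 83.0 in MECA-367 and 19.0 in rat IgG. Cxcl10, a chemokine for T cells, stood at 95.3, 117 and 46.6 CPM, with ratios of 1.02 and 1.32. T and NK cells can make RNA of these genes themselves, and at 1000 UMIs their barcodes showed Cxcl10 in 17.97%, 16.8% and 15.7%, more than the 8.37%, 11.9% and 4.39% of marker-free members. Iigp1 was likewise found in 5.29%, 5.09% and 4.64% of T or NK barcodes and in 3.69%, 5.74% and 2.04% of marker-free members. Cxcl10 in the members is therefore not told apart from free RNA, and Iigp1 was above that level in MECA-367 alone, where its interval of 3.17% to 9.44% includes the T or NK share. Rsad2 and Ifi27l2b, 2 other interferon genes, were called lower in MECA-367, with ratios of -0.92 and -0.68.

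Promoters of 3 interferon genes and of Reg3b, all called higher in MECA-367, are shown as examples of windows with a motif match, and were chosen for that match. Windows of 250 bases before the annotated start came from RefSeq on build GRCm38.p6 (mm10), with 5 of the 6 higher interferon genes matched. The motif searched for the gamma-activated site was TTCNNNGAA and that for the interferon-stimulated response element was GAAANNGAAA, on both strands, where overlapping matches count. Of 32851 windows of all genes, 7.02% held the first and 2.98% the second. Among the 5 matched interferon genes, 2 held the first and 3 the second; among 4 matched class I genes, 1 held the first and 0 the second; among 8 matched defence genes, 1 held the first, which was Reg3b, and 0 the second. Irf1 (chr11:53769764-53770013, plus strand), Igtp, which encodes another of these GTPases (chr11:58199306-58199555, plus strand), Irgm1 (chr11:48871421-48871670, minus strand) and Reg3b (chr6:78370635-78370884, plus strand) are printed 5′ to 3′ along the gene, with matches in capitals.
Irf1: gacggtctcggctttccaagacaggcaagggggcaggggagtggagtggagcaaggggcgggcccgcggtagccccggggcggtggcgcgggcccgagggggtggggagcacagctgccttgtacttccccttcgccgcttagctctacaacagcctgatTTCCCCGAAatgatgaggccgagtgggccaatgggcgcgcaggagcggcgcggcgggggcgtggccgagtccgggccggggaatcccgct
Igtp: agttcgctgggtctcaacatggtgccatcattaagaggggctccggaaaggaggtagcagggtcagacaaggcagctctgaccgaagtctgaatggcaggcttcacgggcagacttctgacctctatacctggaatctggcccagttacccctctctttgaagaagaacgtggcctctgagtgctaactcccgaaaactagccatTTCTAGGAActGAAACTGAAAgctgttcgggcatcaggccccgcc
Irgm1: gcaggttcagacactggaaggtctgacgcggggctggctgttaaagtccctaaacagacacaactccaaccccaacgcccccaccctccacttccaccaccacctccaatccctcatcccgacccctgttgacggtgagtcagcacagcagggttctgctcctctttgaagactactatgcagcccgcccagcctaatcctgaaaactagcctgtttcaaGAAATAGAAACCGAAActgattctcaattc
Reg3b: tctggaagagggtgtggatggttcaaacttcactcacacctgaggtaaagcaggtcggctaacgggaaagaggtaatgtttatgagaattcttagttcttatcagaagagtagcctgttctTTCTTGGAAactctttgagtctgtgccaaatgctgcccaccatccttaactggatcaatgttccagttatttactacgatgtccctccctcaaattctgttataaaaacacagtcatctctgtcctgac
The Irf1 match starts 90 bases before the start of the gene, that of Reg3b 129 bases before, and those of Igtp and Irgm1 within 45 bases. Igtp holds a match of each motif next to each other, and Irgm1 holds 2 overlapping matches of the second. A match is a description of the letters and shows no binding.

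MHC class I and antigen processing genes were higher in MECA-367, 4 of 20 in marker-free members with 0 lower. H2-Q4, a class I gene, stood at 45.2 CPM in DATK32, 76.2 in MECA-367 and 19.5 in rat IgG, with ratios over rat IgG of 1.19 and 1.95. Tap1, a peptide transporter, stood at 28.3, 58.5 and 27.1 CPM and was high in MECA-367 alone, by 1.10. H2-Q7 and Psmb8 were the other 2. Reads of H2-Q genes may be shared between copies. Both H2-Q genes and Tap1 were found in more T or NK barcodes than members at equal depth, so these class I values are not told apart from free RNA.

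MHC class II genes were higher in MECA-367 in marker-free members, 4 of 8 measured with Ctss lower, while 1 of 9 was called higher in all members. Cd74 stood at 253 CPM (230 to 277) in DATK32, 423 (386 to 462) in MECA-367 and 187 (169 to 206) in rat IgG marker-free members. Its MECA-367 ratio over rat IgG was 1.18. In barcodes without epithelial UMIs the ratio ran the other way, at -0.70. T or NK barcodes at 1000 UMIs showed Cd74 in 25.4%, 15.4% and 46.5%, an order opposite to the 19.2%, 30.3% and 14.4% of marker-free members. H2-Ab1 and H2-Eb1 were higher by 0.89 and 1.03, with ratios of -0.51 and -0.48 in barcodes without epithelial UMIs. With a mitochondrial limit of 5%, the MECA-367 ratio of H2-DMa, another class II gene, turned to -0.11 over all members. In cycling epithelial barcodes Cd74 was higher in MECA-367 by 1.17 and H2-Ab1 by 1.11.

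Edn1 and Aqp4, which the rule used, were lower in MECA-367 members and are given as a description. Edn1 stood at 1486 CPM (1430 to 1542) in DATK32, 977 (921 to 1035) in MECA-367 and 1611 (1557 to 1666) in rat IgG marker-free members. Aqp4 stood at 161 CPM (143 to 180), 126 (107 to 148) and 203 (184 to 223). The ratios of MECA-367 over rat IgG were -0.72 for Edn1 and -0.68 for Aqp4. The other 4 rule genes were not called in either comparison with rat IgG. Cftr stood at 164 CPM (146 to 184), 151 (129 to 175) and 176 (159 to 195), with overlapping intervals. Dmbt1 stood at 3779 CPM (3691 to 3869), 3715 (3606 to 3827) and 3993 (3908 to 4079), a range far under 1.5-fold.

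Edn2, a second endothelin and no gene of the rule, followed Edn1. It stood at 218 CPM (197 to 240) in DATK32, 127 (108 to 149) in MECA-367 and 204 (185 to 224) in rat IgG, and MECA-367 was low by -0.67. The receptors of the family were not measured at 50 counts. Of 20 secretion genes in marker-free members, 0 were higher in MECA-367 and 2 lower, Guca2a and Fxyd3. Guca2a stood at 133 CPM (117 to 151), 103 (85.8 to 123) and 201 (183 to 222), low in both antibody libraries with ratios of -0.60 and -0.95. With a mitochondrial limit of 5%, the DATK32 ratio of Guca2a over all members turned to 0.55. Slc12a2 stood at 686 CPM (649 to 725), 730 (682 to 781) and 639 (606 to 674) and was not called. Kcne3 was at 140, 131 and 140 CPM.

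Surface colonocyte genes were lower in MECA-367, 5 of 21 with 0 higher in marker-free members. The absorption list had 1 of 12 higher and 2 lower: Car2, a carbonic anhydrase, and Slc5a8, a carrier of short-chain fatty acids. Car2 stood at 538 CPM (505 to 573) in DATK32, 374 (340 to 411) in MECA-367 and 654 (620 to 690) in rat IgG. Adh1 stood at 149, 94.9 and 201 CPM, with a MECA-367 ratio of -1.07. Scd2, a fatty acid desaturase, stood at 160, 112 and 291 CPM, with ratios of -0.87 and -1.37. Its MECA-367 ratio was -1.29 in barcodes without epithelial UMIs as well. Depp1, a stress-induced gene, and Pdcd4, a translation inhibitor, were lower in MECA-367 by -1.28 and -1.10.

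Cldn7, a claudin of the whole colonic epithelium, stood at 1736 CPM (1676 to 1797) in DATK32, 1088 (1030 to 1150) in MECA-367 and 1651 (1597 to 1707) in rat IgG. MECA-367 was low and its interval lay apart from both others, by -0.60 against rat IgG. Cldn4 was high in both antibody libraries, at 209 CPM (189 to 231), 228 (201 to 257) and 136 (121 to 153); with a mitochondrial limit of 5%, its ratios over all members were 0.022 for DATK32 and -0.22 for MECA-367. Of the other 30 junction genes measured in marker-free members, 1 was called in MECA-367, Dsc2, which was lower. Hes1 stood at 527 CPM (494 to 561), 283 (253 to 315) and 430 (402 to 459), low in MECA-367 by -0.60.

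**Figure D5:**
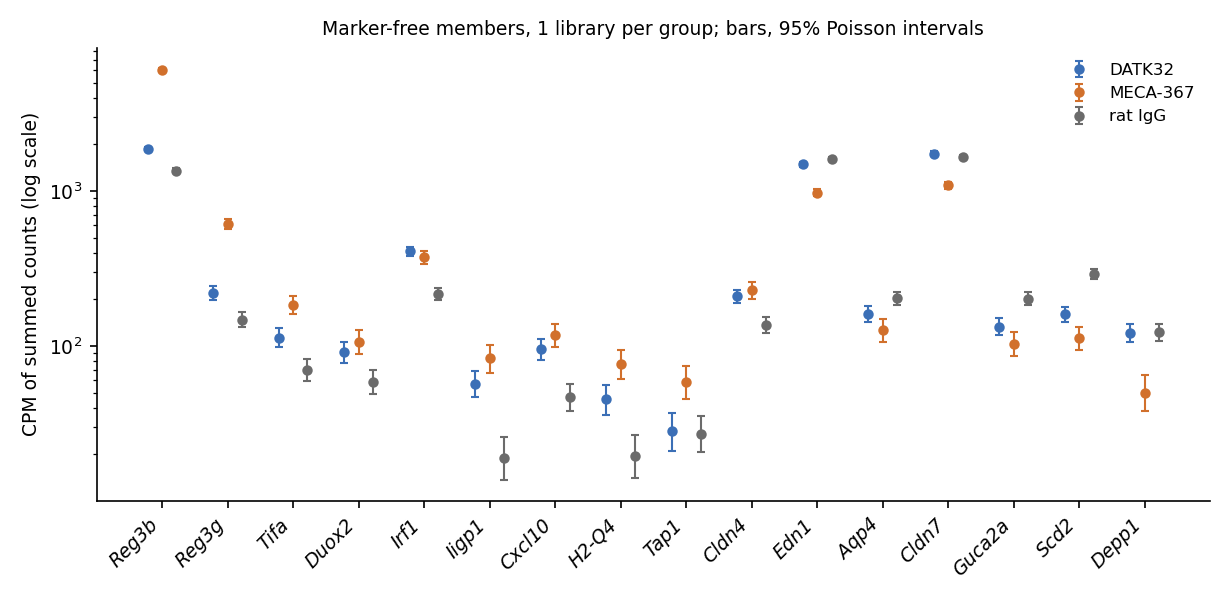
CPM of summed counts (vertical axis, log scale) of 16 genes in marker-free members of DATK32, MECA-367 and rat IgG, with 1 point per library and exact 95% Poisson intervals as bars. Reg3b, Reg3g, Tifa and Tap1 are highest in MECA-367, Irf1 is high in both antibody libraries, and Edn1, Cldn7 and Depp1 are lowest in MECA-367. Edn1 and Aqp4 are genes of the rule.

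Stem cell and Wnt target genes were not called in MECA-367 against rat IgG, 0 of 22 higher and 0 lower in marker-free members. Sox9 stood at 269, 247 and 249 CPM and Cd44 at 158, 189 and 156 CPM. Lgr5, the crypt base stem cell receptor, stood at 24.5 CPM (17.9 to 32.8), 41.5 (30.7 to 54.9) and 23.8 (17.7 to 31.4), with overlapping intervals. Cell cycle genes outside the rule and genes of injury and repair had 0 calls among 29 and 24 in marker-free members. The chemokine list had 0 of 15 higher and 2 lower, Cxcl5 and Ccl20. Ccl20, which attracts lymphocytes and dendritic cells to the epithelium, stood at 44.1 CPM (35.0 to 54.9) in DATK32, 13.6 (7.75 to 22.0) in MECA-367 and 31.9 (24.7 to 40.5) in rat IgG.

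For DATK32 against rat IgG, 165 of 10232 genes were higher (1.61%) and 147 lower (1.44%) in all members, 3.05% called in all. In marker-free members 89 of 8403 were higher (1.06%) and 105 lower (1.25%), 2.31% in all. Of the 165 higher genes 62 were called again in marker-free members, and of the 147 lower genes 57. Defence genes were higher in 7 of 26 and lower in 1, with a median ratio of -0.05, equal to that over all genes. These included Tifa, Duox2 and Nos2, the inducible nitric oxide synthase, which stood at 36.5 CPM (28.3 to 46.4) in DATK32, 22.9 (15.1 to 33.3) in MECA-367 and 15.7 (10.8 to 22.1) in rat IgG. Interferon genes were higher in 3 of 19, namely Irf1, Iigp1 and Cxcl10, and in 11 of 30 among all members. MHC class II genes had 0 calls among 8. The neutrophil genes S100a8 and S100a9 were called higher in DATK32 in marker-free members, by 0.72 and 0.60, and were not called in all members. S100a8 was found in 2.97% of DATK32 and 2.71% of rat IgG marker-free members, and S100a9 in 6.26% and 4.34%. After thinning, single barcodes of these libraries held up to 28 and 38 S100a8 UMIs, and up to 45 and 64 of S100a9. The Poisson intervals leave out such variation between barcodes, and the part of these barcodes in the calls was not tested.

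Hsd11b2, which inactivates glucocorticoid, was low in DATK32, at 55.6 CPM (45.3 to 67.5) against 98.3 (81.2 to 118) in MECA-367 and 114 (100 to 130) in rat IgG. Its DATK32 ratio over rat IgG was -1.03. The receptor Notch1 was high in DATK32 by 0.64, at 69.2, 46.6 and 44.3 CPM. The genes with the highest ratios in DATK32 were histone genes, led by Hist1h2ap at 106, 136 and 26.7 CPM. That gene was higher in MECA-367 too, by 2.33, and in barcodes without epithelial UMIs by 1.04 in DATK32 and 1.32 in MECA-367. Copies of the histone genes are alike, and their separate counts are uncertain. Sycn, a pancreatic zymogen granule gene, was low against rat IgG, at 59.9, 36.4 and 154 CPM in marker-free members. In all members, the 9 acinar barcodes of rat IgG held 291 of its 754 UMIs. In barcodes without epithelial UMIs, its ratios over rat IgG were -6.68 for DATK32 and -3.78 for MECA-367. The part of acinar RNA in the marker-free values was not tested.

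DATK32 against MECA-367 had 203 of 10232 genes higher (1.98%) and 451 lower (4.41%) in all members, 6.39% called in all. In marker-free members 113 of 8403 were higher (1.34%) and 98 lower (1.17%), 2.51% in all. Both comparisons with rat IgG share that library, so their values are set side by side and not correlated. The Reg3 genes were lower in DATK32 than in MECA-367, with ratios of -1.70 for Reg3b and -1.48 for Reg3g in marker-free members. Defence genes were higher in 1 of 26 and lower in 4, which were Reg3b, Reg3g, Retnlb and Tifa. Class II genes were lower in 4 of 8, with Cd74 at -0.74. With a mitochondrial limit of 5%, the H2-Eb1 ratio over all members turned to 0.81. Edn1 and Edn2 were higher in DATK32, by 0.60 and 0.77, as were Cldn7 by 0.67, Hes1 by 0.89 and Ccl20 by 1.63. The rule used Edn1, so its value is a description. The interferon genes Irf1, Iigp1 and Cxcl10 were not called between DATK32 and MECA-367, with ratios of 0.12, -0.54 and -0.30.

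The difference in Reg3 RNA was not particular to the members. In marker-free cycling and surface barcodes, Reg3b was higher in MECA-367 than in rat IgG by 3.55 and 2.05, Reg3g by 2.75 and 3.06, and Tifa by 1.43 and 1.03. Barcodes over the mitochondrial limit that met the gene rule showed it as well: without markers of other cell types, 772 from MECA-367 and 873 from rat IgG gave a Reg3b ratio of 2.01. The same barcodes gave -0.68 for Cldn7 and 1.12 for Cd74.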

How the data were processed

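The authors deposited raw counts, UMIs of each gene in each barcode, as 1 10x matrix per library. Per the submitters' processing notes they used Cell Ranger 6.0.2 and build mm10; annotation, cell filter and strand setting are not given in the sources used here. Per the labels, libraries were 10x 3' v3.1, sequenced on 1 lane. The files list 8445 DATK32, 8387 MECA-367 and 10826 rat IgG barcodes with 28030376, 27846540 and 30359331 UMIs; 5852, 5890 and 7367 barcodes were kept. Groups follow the labelled treatment.

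Counts were summed over members per library and scaled to CPM, with Poisson intervals (exact). Before a log2 ratio was taken, 1 was added to both counts. Shares have exact Clopper-Pearson intervals. A call needs a fold of 1.5 and intervals apart, for genes with 50 counts over the 3 libraries. Depth was matched by thinning to 1000 UMIs. The call rule was also run on simulated Poisson counts. These held no variation between barcodes or replicate libraries, so they cannot show how the calls hold in these data. Members and the 23 gene lists were chosen with earlier results of these data known. Named genes were the 10 highest and 10 lowest ratios per comparison among called genes with 100 counts over both libraries and a UMI in 10% of members of the higher library, without mitochondrial, ribosomal, haemoglobin, immunoglobulin, receptor segment, clone and rule genes; against other epithelium the 15 highest and 10 lowest; and list or rule genes. Scrublet (scanpy 1.11.5) marked 3, 0 and 0 kept barcodes, so it did not separate doublets; doublets remain, and leaving out the 274, 278 and 434 highest scores is an alternative. Barcodes over the mitochondrial limit numbered 2589, 2481 and 3453. Alternatives also used TMM factors (edgeR 4.0.16) and DESeq2 1.42.0 size factors in R 4.3.3, with Python 3.11.15, numpy 2.4.6, scipy 1.17.1, pandas 2.3.3 and matplotlib 3.10.9. Promoter windows were read from RefSeq.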

Additional observations from a re-analysis of the deposited data

Results flagged for a closer look

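Barcodes over the mitochondrial limit were not used in the comparisons, and many of them met the gene rule of the members. In MECA-367, 43.8% of such barcodes with enough UMIs and genes met it (1063 of 2428), against 38.1% in rat IgG (1313 of 3442); the DATK32 share was 38.1% (983 of 2578). Among those with an epithelial UMI the shares were 40.0% in DATK32, 46.8% in MECA-367 and 40.3% in rat IgG. Both MECA-367 shares stand above the rat IgG share with intervals apart but a fold under 1.5, so neither would be called. The median mitochondrial share of these barcodes was 18.4% in DATK32, 26.5% in MECA-367 and 17.2% in rat IgG.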

How the results depend on the processing

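No paired analysis was possible because each group has 1 library. No result has a replicate check, and depth per barcode differs between libraries. The share among epithelial barcodes kept its side of the threshold in 45 of 45 combinations of setting and comparison. Among kept barcodes the MECA-367 ratio over rat IgG, -0.40 as reported, passed the fold at -0.96 with 1000 UMIs and 500 genes, -1.13 thinned and -0.96 with Clca3b, Tm4sf20, Aqp4 and Cftr alone; that of DATK32 over MECA-367 passed it at 0.74 thinned, 0.69 without markers (with acinar genes too) and 0.76 with those 4 genes. The 4-gene, acinar and joint marker settings were chosen after seeing the data.

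Counts of called genes moved by over 1.5 times in these settings. DATK32 over rat IgG, 165 higher: thinned 53, no marker 93, no marker or acinar genes 89, 4 genes 84, mean of scaled barcodes 907, fold of 2 79. Lower, 147: 81 thinned, 883 scaled mean, 65 at fold 2. MECA-367 over rat IgG, 596 higher: 360 at 5% mitochondrial counts, 243 thinned, 179 without markers, 177 without acinar genes too, 268 with 4 genes, 1588 scaled mean. Lower, 407: 808 with every deposited barcode, 170 thinned, 257 without markers and acinar genes, 1540 scaled mean, 133 at fold 2. DATK32 over MECA-367, 203 higher: 404 with every barcode, 89 thinned, 113 in both marker settings, 1137 scaled mean, 65 at fold 2. Lower, 451: 273 at 5%, 138 thinned, 98 in both marker settings, 236 with 4 genes, 1265 scaled mean, 298 at fold 2. The scaled mean has no interval, and thinning and the marker settings use fewer counts.

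Of 147 gene and comparison pairs, TMM and DESeq2 factors each changed 1 call and reversed 0. Other settings lost more calls without a change of direction: 69 of 147 at a fold of 2 and 42 of 142 thinned to 1000 UMIs. At 5% mitochondrial counts 34 of 135 were lost, with every deposited barcode 27 of 147, and with the 4 genes alone 20 of 145. Reversed values were as follows. Without markers, S100a9 in MECA-367 over rat IgG was -0.16 (-0.17 without acinar genes too), and DATK32 over MECA-367 was 0.77 for S100a9, 0.57 for S100a8 and 0.59 for G0s2 in both marker settings. Cxcl5 in DATK32 over rat IgG was 0.057 with every barcode and 0.26 thinned. At 5% mitochondrial counts (279 DATK32, 224 MECA-367 and 283 rat IgG members), Guca2a was 0.55 in DATK32 over rat IgG, H2-DMa -0.11 and Cldn4 -0.22 in MECA-367 over rat IgG, and H2-Eb1 0.81, Car2 -0.13 and Crebzf 0.048 in DATK32 over MECA-367. Wls was -0.0044 thinned. The cause was not tested.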

Other observations

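Squamous keratin genes were present in members of 2 libraries: the list with Krt5 and Krt14 summed to 205 CPM in DATK32, 5.93 in MECA-367 and 145 in rat IgG marker-free members, with Krt5 and Krt14 at 0 in MECA-367. They came from few barcodes, 7, 0 and 8 with 3 or more UMIs. The enteroendocrine list summed to 387, 264 and 431 CPM, from 4, 4 and 16 such barcodes. The haemoglobin list summed to 426 CPM in MECA-367, where 1 marker-free barcode held 3 or more UMIs, and was at 0 in DATK32 and rat IgG. Among all members, the 9 rat IgG barcodes with acinar genes held 704 of 976 Cela1 UMIs and 101 of 103 Reg3a UMIs of that library.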
